A study of Mus musculus with 3 samples.

Results

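Regulators of G-protein signalling (RGS proteins) were examined as 8 genes picked by name, Rgs1, Rgs2, Rgs3, Rgs10, Rgs14, Rgs16, Rgs18 and Rgs19, out of 22350 protein-coding genes on chromosomes 1 to 19 and X of the mm9 mouse assembly with GENCODE M1 symbols. They were followed by ChIP-Seq of Pol_II phosphorylated at Ser5 of its carboxy-terminal domain, a form found at transcription start sites (TSS) and along transcribed genes. The cells were bone marrow-derived macrophages of female Fvb mice (Fvb/Hsd in the methods) on the 7th day of differentiation in L929-conditioned medium. There were 3 libraries: Ser5 from untreated cells, Ser5 from cells given 10 ng/ml of lipopolysaccharide (LPS, an endotoxin from the bacterial surface that activates macrophages) for 2 h, and, from untreated cells again, input DNA that had not been immunoprecipitated. The labels name LPS as the only agent and no genotype change, and the number of mice behind each library is not given in the sources used here. With 1 library per condition no difference has a replicate check and no test was made. Differences are described by their size alone: a gene passed when its levels differed by a factor of 2 or more, given 10 or more tags over the libraries compared, and every interval is a 95% interval for counting error only.

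RGS proteins bind the active, GTP-loaded alpha subunits of heterotrimeric G proteins and speed up GTP hydrolysis, which shortens the signal of G-protein-coupled receptors such as those for chemokines, prostaglandins and complement fragments. Receptors of this kind steer the migration of macrophages and modulate their inflammatory output. Rgs1, Rgs2, Rgs3, Rgs16 and Rgs18 belong to the small R4 subfamily, Rgs10 and Rgs14 to the R12 subfamily, and Rgs19 to the RZ subfamily.

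The following sequences carry the contrasts described later. They are the 250 bases before the RefSeq start of Rgs2, the member with the highest Ser5 level in untreated cells, of Rgs16, the member that was higher after LPS, of Rgs19, and of the first start of Rgs3, which held no Ser5 tags, followed by a Ser5 peak upstream of Rgs2 and one inside an intron of Rgs10 that were called in untreated cells only. The promoters come from the RefSeq promoter table (GRCm38.p6) and each matched the mm9 assembly exactly once. They lie on chr1:145851280-145851529 (minus strand), chr1:155587233-155587482 (plus strand), chr2:181428683-181428932 (minus strand) and chr4:62220631-62220880 (plus strand), and the peaks on chr1:145853815-145854050 and chr7:135534775-135535073, both written on the minus strand, the strand of their genes. Capitals mark matches to 6 motifs searched on both strands.
Rgs2 promoter: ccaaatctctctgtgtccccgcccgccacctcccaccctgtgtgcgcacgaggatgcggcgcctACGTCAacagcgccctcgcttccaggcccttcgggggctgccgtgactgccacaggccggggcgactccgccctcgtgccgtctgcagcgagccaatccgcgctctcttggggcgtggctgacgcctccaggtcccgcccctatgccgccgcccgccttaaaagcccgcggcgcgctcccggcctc
Rgs16 promoter: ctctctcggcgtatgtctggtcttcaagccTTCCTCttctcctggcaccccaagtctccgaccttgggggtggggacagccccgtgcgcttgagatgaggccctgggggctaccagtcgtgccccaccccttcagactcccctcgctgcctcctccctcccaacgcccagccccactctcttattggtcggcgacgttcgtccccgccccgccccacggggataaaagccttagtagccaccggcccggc
Rgs19 promoter: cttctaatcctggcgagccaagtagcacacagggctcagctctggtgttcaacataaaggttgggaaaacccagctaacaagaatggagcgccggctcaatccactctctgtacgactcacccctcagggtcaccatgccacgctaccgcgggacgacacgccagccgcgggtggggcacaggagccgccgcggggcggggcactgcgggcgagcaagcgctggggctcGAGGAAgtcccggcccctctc
Rgs3 promoter at the first annotated start: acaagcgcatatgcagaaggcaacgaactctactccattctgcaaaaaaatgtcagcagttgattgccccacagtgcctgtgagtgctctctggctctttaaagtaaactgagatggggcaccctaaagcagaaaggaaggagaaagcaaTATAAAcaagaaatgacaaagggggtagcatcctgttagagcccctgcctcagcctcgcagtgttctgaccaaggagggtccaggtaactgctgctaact
Rgs2 upstream peak: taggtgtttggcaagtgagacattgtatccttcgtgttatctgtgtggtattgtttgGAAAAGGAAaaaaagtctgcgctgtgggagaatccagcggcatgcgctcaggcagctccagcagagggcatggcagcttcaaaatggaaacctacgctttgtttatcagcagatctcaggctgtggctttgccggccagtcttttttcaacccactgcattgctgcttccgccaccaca
Rgs10 intronic peak: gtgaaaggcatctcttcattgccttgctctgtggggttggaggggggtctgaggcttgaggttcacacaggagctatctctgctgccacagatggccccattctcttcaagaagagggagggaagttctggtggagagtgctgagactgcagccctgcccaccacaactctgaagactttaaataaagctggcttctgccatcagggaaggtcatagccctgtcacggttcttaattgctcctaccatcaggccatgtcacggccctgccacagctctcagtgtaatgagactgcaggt

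The table held 8 promoter entries for 5 of the 8 members. Rgs1, Rgs14 and Rgs18 had no entry. The Rgs2 promoter held 1 match to the CRE half-site TGACGT, on the minus strand at -186 to -181 bp, a motif present in 6.47% of the 32851 promoters of the same length. The Rgs16 promoter held 1 match to the PU.1-type motif GAGGAA at -220 to -215 bp, found in 23.2% of all promoters, and this motif also stood in all 3 Rgs19 entries, with 1 site shared by the first pair, and in 1 of 2 Rgs3 entries. Both Rgs3 entries held TATAAA, the TATA box, which 12.4% of promoters held, and the Rgs10 entry held none of the 6 motifs. No member promoter in the table matched the kappa-B motif GGANTTNCC (3.15% of all promoters), AP-1 TGANTCA (6.75%) or the ISRE core GAAANNGAA (7.13%), and 1 match to the ISRE core stood in the upstream Rgs2 peak. Where matches occurred they did not overlap one another. A match is only a description of the letters in these windows.

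The libraries held 7616771, 6249819 and 7533308 tags on chromosomes 1 to 19 and X for untreated Ser5, LPS Ser5 and input. Of 6 macrophage markers Csf1r, Emr1, Cd68 and Lyz2 lay at least 2 times above input in both Ser5 libraries, Itgam in untreated cells only, and Mertk after LPS only, with 1.36 times input in untreated cells. The summed level of the macrophage list was 171 TPM per kb, that is, tags per 1000000 tags of the library and per kb of gene body, in untreated cells and 71.0 after LPS, where Emr1 (3.01 times) and Mertk (1.48 times) were higher than in untreated cells and the other 4 lower. Among the lists for T, B, NK, neutrophil, megakaryocyte, erythroid, fibroblast and dendritic cells, at most 2 markers of any list passed that rule in either library, and Cd3e, Ncr1, Ly6g, Dcn and Flt3 lay below input in untreated cells. Those above included, in untreated cells, the T cell marker Cd3d at 3.84 times input, the neutrophil marker Ngp at 2.57 times and the megakaryocyte and platelet marker Pf4 at 2.47 times. Camp of the neutrophil list was 3.21 times higher after LPS than in untreated cells. All 5 LPS-response genes checked were higher in the library labelled LPS, from 6.19 times for Nfkbia to 396 times for Ccl5, an inflammatory chemokine.

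The 8 members took different levels of Ser5, given here as TPM per kb of gene body. In untreated cells Rgs2 was the highest at 27.5 (25.8 to 29.2, exact Poisson interval), followed by Rgs19 at 13.1, Rgs1 at 7.55, Rgs14 at 3.21 and Rgs10 at 2.30. Rgs16 at 1.03, Rgs18 at 0.635 and Rgs3 at 0.628 came last, and the intervals of Rgs16 and Rgs18 and of Rgs18 and Rgs3 overlapped. After LPS the order was Rgs1 at 9.20 and Rgs19 at 8.58, whose intervals overlapped, then Rgs2 at 5.21 and Rgs16 at 4.63, which also overlapped, then Rgs14 at 2.95, Rgs10 at 0.716, Rgs3 at 0.557 and Rgs18 at 0.246. Rgs2 thus went from above 99.3% to above 93.2% of all protein-coding genes, and Rgs16 from above 64.4% to above 92.2%.

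**Figure D1:**
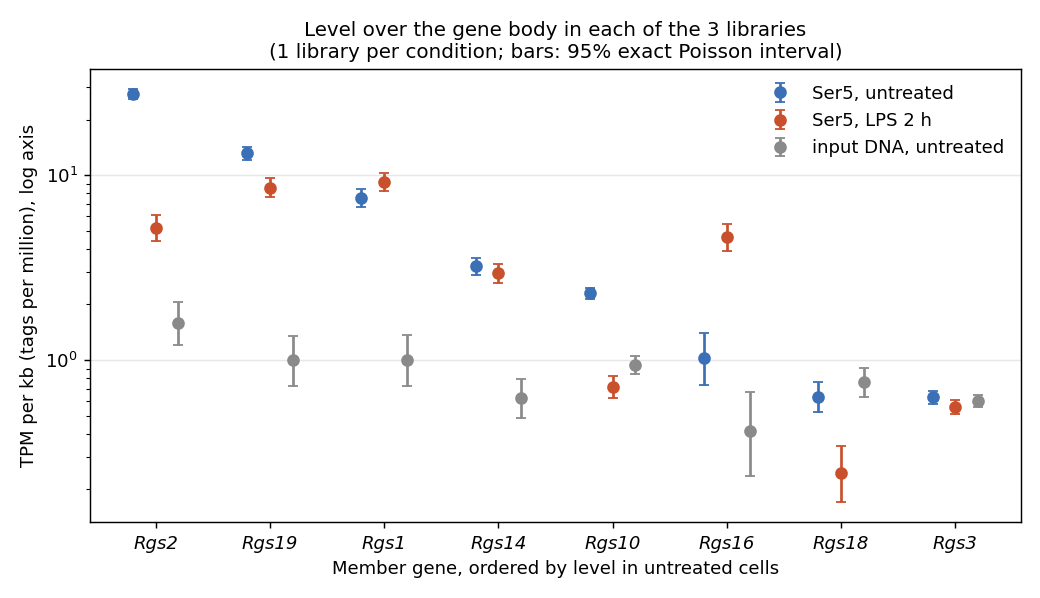
Level of Ser5 and input over the gene body of the 8 members, in TPM per kb on a log axis, with 1 point per library and bars for 95% exact Poisson intervals. Rgs2 is at 27.5 in untreated cells and 5.21 after LPS, Rgs16 at 1.03 and 4.63, and the input stays between 0.415 and 1.60.

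Over the gene body 6 members were at least 2 times above input in untreated cells, where 37.6% of all genes passed that rule, and 5 after LPS, where 32.8% did. Rgs1, Rgs2, Rgs14, Rgs16 and Rgs19 passed in both libraries, Rgs10 in untreated cells only, and Rgs3 and Rgs18 in neither. In untreated cells the ratio to input ran from 0.837 for Rgs18 to 17.2 for Rgs2. A Ser5 peak overlapped the TSS window, 1 kb on either side of the 5′ end of the gene record, in 7 members in untreated cells (48% of all genes) and in 6 after LPS (45.9%). Rgs3 had none in either library and Rgs18 none after LPS. A peak overlapped the gene body of all 8 members in untreated cells (53.3% of all genes) and of 7, all but Rgs18, after LPS (50.6%).

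Comparing LPS with untreated cells over the gene body, 1 member, Rgs16, was at least 2 times higher, against 5.82% of the 17386 genes with enough tags, and 3 members, Rgs2, Rgs10 and Rgs18, were at least 2 times lower, against 11.2%. In the TSS window, where 7 members had enough tags, Rgs16 was again higher (5.61% of 12536 genes) and Rgs2 and Rgs18 were lower (14.1%). The median ratio of LPS to untreated over the 8 gene bodies was 0.770, beside 0.874 for all genes. A lower Ser5 level in bulk cells can reflect fewer cells carrying Pol_II on a gene or less Pol_II per cell, and these cannot be told apart here.

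**Figure D2:**
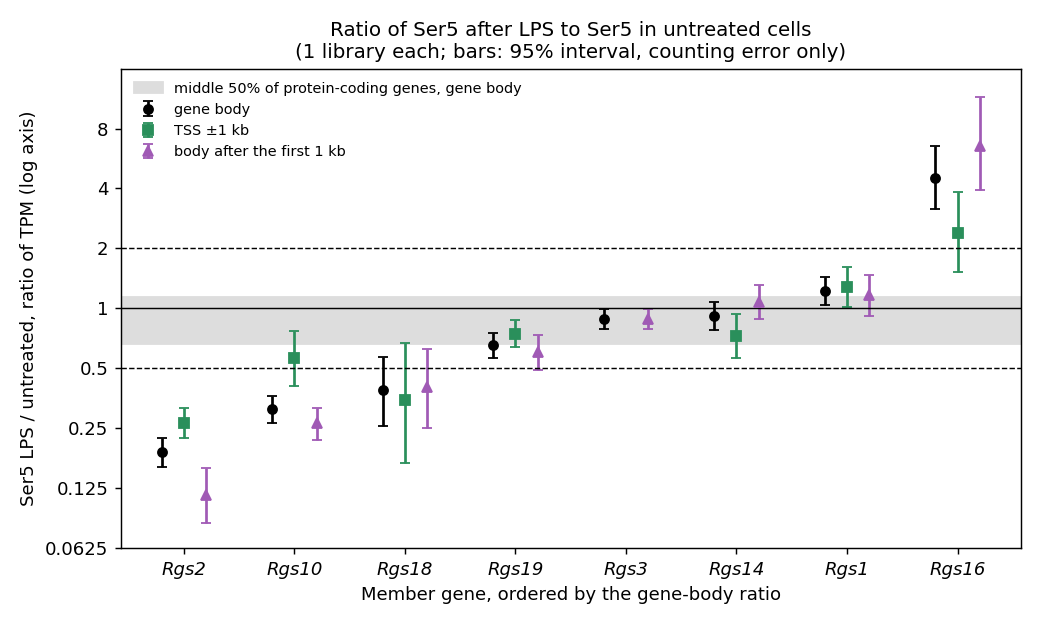
Ratio of LPS to untreated Ser5 tags, scaled to library depth, for each member on a log axis, over the gene body, the TSS window and the body after its first 1 kb, with 95% counting intervals. Dashed lines mark ratios of 0.5 and 2 and the grey band the middle 50% of all genes over the gene body. The gene-body ratios of Rgs2, Rgs10 and Rgs18 lie below 0.5 and that of Rgs16 above 2. Rgs3 has no point for the TSS window, which held 0 Ser5 tags.

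Rgs2, which acts mainly on Gq-coupled signalling, had the lowest ratio among the members. Its gene body (ENSMUSG00000026360, chr1:145846468-145851291, minus strand) held 1010 Ser5 tags in untreated cells, 157 after LPS and 58 in the input. This gave a ratio of 0.189 (0.159 to 0.224) between LPS and untreated cells, lower than that of 99.2% of genes tested. The TSS window held 721, 158 and 20 tags, a ratio of 0.267 (0.223 to 0.318). After LPS the gene kept a start-site signal and few tags beyond it. In the body after the first 1 kb the tags went from 483 to 46, a ratio of 0.116 (0.0838 to 0.157). The input held 48 tags there, which put this part at 1.155 (0.754 to 1.77) times input after LPS. That value depends on the scaling. Scaled to the tags outside peaks, the whole gene body stood at 6.68 rather than 3.26 times input after LPS. The remaining body rises by the same factor, so its place near the input holds only for scaling to all tags. Between LPS and untreated cells, the intervals of the start and of the remaining body did not overlap. The log2 of the body ratio over the start ratio was -1.20, a value that 3.94% of 11608 genes matched or went below. Genes lower after LPS leaned the same way, with a median of -0.280 and quartiles of -0.759 and 0.281 over 1340 genes. The gene-body rule shares tags with this measure. Genes that pass it, as Rgs2, Rgs10 and Rgs16 did, can show a larger difference in the body through that choice alone.

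The peak calls over Rgs2 followed these tags. In untreated cells 1 peak of 5604 bp covered 99.0% of the gene body, and after LPS 1 peak of 420 bp, centred at -9 bp from the TSS, covered 4.17%. The peak printed above, centred at -2641 bp from the TSS and outside any coding gene, held 15 tags in untreated cells, 1 after LPS and 0 in the input. The 5 kb after the gene end held 10 and 6 Ser5 tags, below the 23 of the input.

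Rgs16, which acts on Gi- and Gq-coupled signalling, was the only member that passed the rule in the upward direction. Its gene body (ENSMUSG00000026475, chr1:155587479-155592598, plus strand) held 40 Ser5 tags in untreated cells, 148 after LPS and 16 in the input, a ratio of LPS to untreated of 4.51 (3.16 to 6.57), above that of 98.9% of genes tested. The TSS window held 30, 59 and 11 tags, a ratio of 2.40 (1.52 to 3.85). As in Rgs2, but in the upward direction, the difference was larger in the remaining body than at the start. In the body after the first 1 kb the tags went from 18 to 97, a ratio of 6.57 (3.94 to 11.5), while the input held 13. The interval of the body began just above the end of the start-site interval. With 1 tag per position these intervals overlapped, at 6.65 (3.86 to 12.2) for the body and 2.33 (1.40 to 3.96) for the start. The log2 of the body ratio over the start ratio was 1.45, which 96.4% of genes did not exceed. Genes higher after LPS leaned the same way, with a median of 0.554 and quartiles of 0.0993 and 1.11 over 677 genes. As for Rgs2, passing the gene-body rule can bring such a lean with it.

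In untreated cells Rgs16 carried 1 peak of 257 bp, centred 51 bp after the TSS, and after LPS 5 peaks covering 33.9% of the gene body. The peaks called after LPS alone included one of 563 bp in an exon centred 4776 bp after the TSS, where untreated cells had 2 tags and LPS-treated cells 22, and one of 348 bp at the gene end, centred at 5264 bp, with 1 and 14. Rgs8, the nearest gene upstream, held 52 and 32 tags, fewer than the 163 of the input.

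Rgs1, a regulator of chemokine receptor signalling in leukocytes, differed by less than the rule asks. Its gene body (ENSMUSG00000026358, chr1:146091102-146096372, minus strand) held 303 tags in each Ser5 library and 40 in the input, which after scaling gave a ratio of LPS to untreated of 1.22 (1.04 to 1.43). Around its TSS were 150, 158 and 19 tags, a ratio of 1.28 (1.02 to 1.62). Rgs1 was covered along most of its length in both conditions. It carried 7 peaks over 58.6% of the body in untreated cells and 8 over 67.4% after LPS. Ser5 also continued past the gene end, where the following 5 kb held 135 and 144 tags against 52 in the input.

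**Figure D3:**
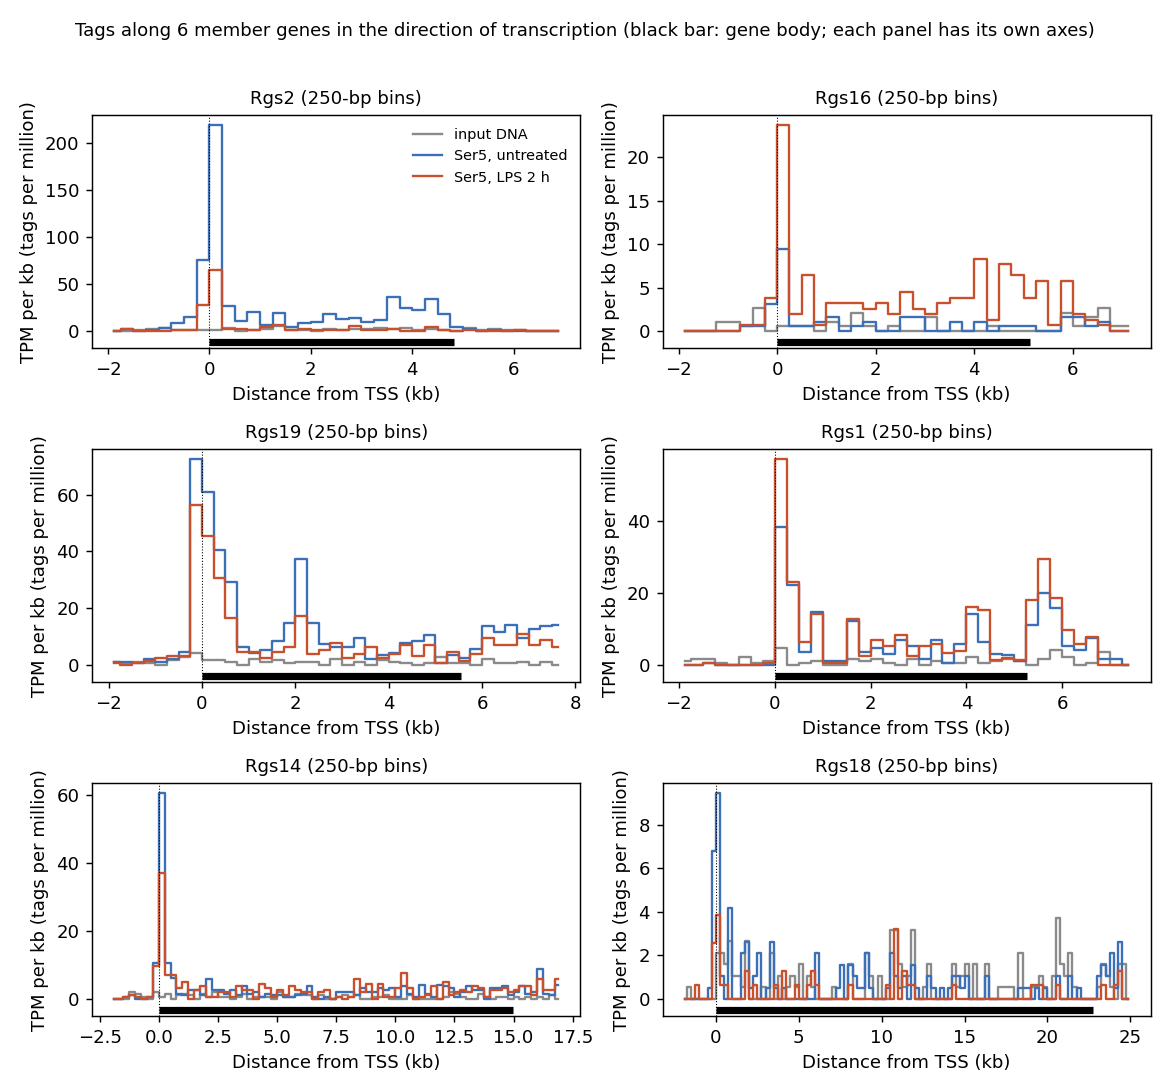
TPM per kb in bins of 250 bp against the distance from the TSS for 6 members, with a line for each library, a black bar for the gene body and separate axes in each panel. In the first 250 bp of Rgs2 the level is 219 in untreated cells and 65.3 after LPS, and in those of Rgs16 it is 9.45 and 23.7. Rgs1 has a further maximum just past the end of the gene in both Ser5 libraries.

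Rgs18, an R4 member best known from platelets and megakaryocytes, held little Ser5. Its gene body (ENSMUSG00000026357, chr1:146599813-146622565, minus strand) held 110 tags in untreated cells, 35 after LPS and 130 in the input. LPS-treated cells thus stood at 0.388 (0.257 to 0.572) of untreated cells, but both Ser5 libraries lay below the input, at 0.837 (0.643 to 1.09) and 0.325 (0.217 to 0.475) times, which scaling to the tags outside peaks turned into 1.59 and 0.664. Around the start untreated cells stood higher against the input. The TSS window held 42, 12 and 16 tags, 2.60 times input in untreated cells, with 0.348 (0.167 to 0.674) between LPS and untreated cells. The only peak, of 346 bp and centred at -77 bp from the TSS, was called in untreated cells and held 27 tags there and 8 after LPS. Of the 3 megakaryocyte and platelet markers, Pf4 stood at 20 tags in untreated cells and 14 after LPS with 8 in the input. This put Pf4 at 2.47 times input in untreated cells, past the rule. Itga2b stood at 1.06 times input in untreated cells, and Gp9 below input. The list summed to 3.48 and 3.17 TPM per kb in the Ser5 libraries and 2.21 in the input. The part of such cells in the Rgs18 signal was not tested.

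On chromosome 1 Rgs2, Rgs1 and Rgs18 lie in a row with other RGS genes between them. Rgs13, between Rgs2 and Rgs1, held 36, 11 and 168 tags in untreated, LPS and input libraries, and Rgs21, between Rgs1 and Rgs18, held 8, 8 and 73. Both lay under the input, so in this cluster the rule for Ser5 above input was met by the bodies of Rgs1 and Rgs2 and, in untreated cells, by the TSS window of Rgs18.

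Rgs3, the longest member, has several annotated starts, from which long and short forms of the protein are made. Over the whole gene record (ENSMUSG00000059810, chr4:62220881-62364052, plus strand) the 685 tags in untreated cells, 498 after LPS and 648 in the input gave a ratio of LPS to untreated of 0.886 (0.788 to 0.996) and levels of 1.05 and 0.926 times the input, or 1.99 and 1.90 when scaled to the tags outside peaks. The first start held 0 Ser5 tags in either library, which allows up to 3 tags (the one-sided 95% limit of a count of 0), or 0.197 and 0.240 TPM per kb, and 8 tags in the input. The Ser5 tags of Rgs3 stood in its 3′ part. Of 8 start windows, those of Rgs3-001, Rgs3-002, Rgs3-005 and Rgs3-014 held at most 9 Ser5 tags in a library. The start of Rgs3-015, 103775 bp into the gene, held 102 tags in untreated cells, 21 after LPS and 20 in the input.

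The internal starts of Rgs3 did not share 1 ratio. Rgs3-015 gave 0.251 (0.149 to 0.404) for LPS against untreated cells, and its intronic peak of 892 bp was called in untreated cells only. At Rgs3-010, 114192 bp into the gene, 79 and 68 tags gave 1.05 (0.747 to 1.47). At Rgs3-202, 139833 bp into the gene, 115 and 84 tags gave 0.890 (0.664 to 1.19), and the last start, Rgs3-012, shares part of its window. The interval of Rgs3-015 lay apart from those of Rgs3-010 and Rgs3-202, both of which had peaks in both libraries. Past the gene end, the next 5 kb held 113 tags in untreated cells, 65 after LPS and 13 in the input. These starts were singled out after their values were seen.

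**Figure D4:**
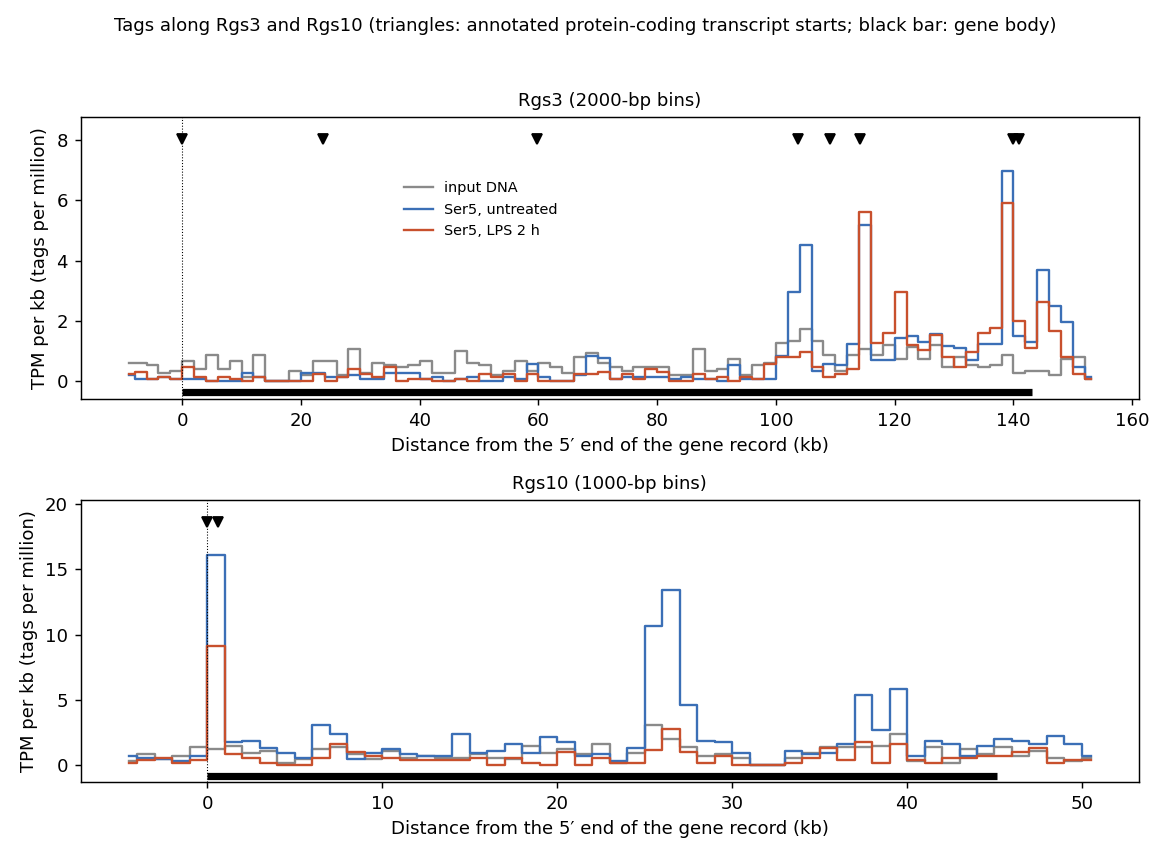
TPM per kb against the distance from the 5′ end of the gene record for Rgs3 in 2000-bp bins and Rgs10 in 1000-bp bins, with a line for each library, triangles at annotated protein-coding starts and a black bar for the gene body. In Rgs3 the Ser5 signal above input lies in the 3′ part, and the maximum at the start of Rgs3-015, 103775 bp into the gene, is high in untreated cells alone. In Rgs10 the untreated maxima at the intronic peaks, 26114 to 39386 bp into the gene, are near the input level after LPS.

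Rgs10, an R12 member that acts on Gi-coupled signalling and is abundant in microglia, passed the rule for a lower level over its body but not in its TSS window. Its gene body (ENSMUSG00000030844, chr7:135517135-135562272, minus strand) held 791 tags in untreated cells, 202 after LPS and 320 in the input. LPS-treated cells stood at 0.311 (0.265 to 0.364) of untreated cells, lower than that of 97.1% of genes tested, and the body was 2.45 times input in untreated cells and 0.761 times after LPS, the latter 1.56 when scaled to the tags outside peaks. At the start the difference was smaller. There the window held 128, 59 and 19 tags, a ratio of 0.562 (0.406 to 0.771). The body after the first 1 kb went from 668 to 145 tags, a ratio of 0.264 (0.220 to 0.317), so that these intervals did not overlap. With 0.5 kb on either side the start ratio became 0.441 (0.237 to 0.782) and passed, and its interval overlapped that of the body. With the 1 kb window, the log2 of the body ratio over the start ratio was -1.09, which 4.96% of genes matched or went below. Genes lower after LPS had a median of -0.280 by this measure, and here too passing the gene-body rule can bring such a lean with it.

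Part of the Rgs10 difference sat in introns. A processed transcript on the same strand, Gm15503, overlaps the gene body. It held 37 tags in untreated cells, 14 after LPS and 20 in the input. The 5 peaks of untreated cells included 1 of 982 bp at the start of Rgs10-001, which held 123 tags in untreated cells and 57 after LPS and was also called after LPS, and 4 intronic peaks that were not. The largest, of 1417 bp and centred 26114 bp after the 5′ end of the gene record, held 172 tags in untreated cells, 22 after LPS and 19 in the input, a ratio of LPS to untreated of 0.156 (0.0952 to 0.244). The peak printed above, centred at 27348 bp, held 27, 1 and 1 tags, a ratio of 0.0451 (0.00110 to 0.274). The annotated start nearest to the peaks at 26114 and 27348 bp is that of Rgs10-004. It lies 1041 and 2275 bp before their centres and is not among the protein-coding starts counted. Whether their tags belong to that start was not tested. The remaining pair, centred at 37532 and 39386 bp, held 38 and 49 tags in untreated cells and 8 and 10 after LPS. These peaks were chosen because they were called in 1 library only, so their ratios are descriptions. Upstream of Rgs10, peaks centred at -19295 and -19899 bp from the TSS and outside coding genes were likewise called in untreated cells only, with 35 and 19 tags there and 6 and 6 after LPS.

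Rgs14, the other R12 member, which adds Ras-binding domains and a GoLoco motif to its RGS domain, differed by less than the rule asks over its body and at its start. The gene body (ENSMUSG00000052087, chr13:55471093-55486048, plus strand) held 366 tags in untreated cells, 276 after LPS and 70 in the input, a ratio of LPS to untreated of 0.919 (0.783 to 1.08). At the start were 171, 102 and 14 tags, a ratio of 0.727 (0.563 to 0.934), and the body after the first 1 kb 216, 191 and 64, a ratio of 1.08 (0.882 to 1.32). Peaks went from 4 over 8.72% of the body to 7 over 16.2%, and the 6 away from the start that were called after LPS alone held between 5 and 17 tags each in that library. Body peaks centred at 2224 and 9848 bp from the TSS were called in untreated cells alone, with 13 and 9 tags there and 0 and 1 after LPS.

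Rgs19, the RZ member, which acts on alpha subunits of the Gi group, had the second highest level in untreated cells. Its gene body (ENSMUSG00000002458, chr2:181423124-181428682, minus strand) held 556 tags in untreated cells, 298 after LPS and 42 in the input, a ratio of LPS to untreated of 0.653 (0.566 to 0.753) that did not pass the rule. At its first start were 414, 254 and 24 tags, a ratio of 0.748 (0.637 to 0.876). A second group of starts, 2160 bp into the gene, went from 187 to 78 tags, a ratio of 0.508 (0.385 to 0.666), and its interval overlapped that of the first start. The covered part of the body was 77.9% in untreated cells and 48.0% after LPS. The 3′ end of Rgs19 lies 348 bp from that of Tcea2, a transcription elongation factor gene on the plus strand, which went from 400 to 187 tags, and the 314 and 149 tags in the 5 kb after the end of Rgs19 fall mostly in that gene.

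For each member that passed the rule over the gene body, the 3 genes nearest in level in both Ser5 libraries were taken from 14336 genes, by the distance between log2 of the level plus 0.1. They were Apobec1, Hist1h2bn and Ctsa for Rgs2, at distances of 0.09 to 0.26. For Rgs10 they were Cdc6, Slc7a7 and Dut, at 0.05 to 0.07. For Rgs16 they were Fpr3, a formyl peptide receptor family gene, Fnbp1l and Calcrl, a component of receptors for calcitonin-family peptides, at 0.06 to 0.13. For Rgs18 they were Tbc1d30, Klhl22 and Ctdspl, at 0.02 to 0.04. The likeness rests on 2 libraries and reflects nothing but these levels.

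Beyond the members, 59 genes of heterotrimeric G-protein signalling were listed, of which 57 had enough tags over the gene body. Of these 3 were at least 2 times higher after LPS, 6 were lower and 48 were neither, beside 5.82% of all genes higher and 11.2% lower, so these shares were near the background. The median ratio was 0.865, beside 0.874 for all genes. Among the 15 other RGS genes and RGS-binding proteins 1 was at least 2 times above input, Rgs11, and Rgs13 passed the rule for a lower level with both Ser5 libraries under the input. Over the gene body 6 of 8 members were at least 2 times above input in a Ser5 library. Of all genes 37.6% passed in untreated cells and 32.8% after LPS. Members and lists were chosen with earlier results of these data known, so the counts for the members and for these 15 genes are descriptions only.

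The G-protein subunits that RGS proteins act on or that bind their substrates were found on both sides of the rule. Gna13, an alpha subunit, went from 644 to 1113 tags (2.11, 1.91 to 2.33), while the related Gna12 went from 1719 to 595 (0.422, 0.384 to 0.463). Gnb4, a beta subunit, went from 194 to 494 tags (3.10, 2.62 to 3.68) and the gamma subunit Gng12 from 884 to 1619 (2.23, 2.06 to 2.42). The alpha subunits of the Gi and Gq groups that were at least 2 times above input in a Ser5 library, Gnai2, Gnai3, Gnaq, Gna11 and Gna15, did not pass the rule for LPS against untreated cells, at 1.24, 1.32, 1.15, 0.664 and 0.512. The genes that were lower also included Gnb3 at 0.480, Gng13 at 0.229, Gngt2 at 0.214 and Arrb1, a beta-arrestin that uncouples receptors from G proteins, which went from 1625 to 354 tags (0.266, 0.236 to 0.298). All other receptor kinases, arrestins, GoLoco proteins and chaperones of the list were within a factor of 2.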

How the data were processed

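Ser5 ChIP-Seq of Pol_II from untreated and LPS-treated macrophages and input DNA of untreated cells were used, with 1 library each, grouped by their labels. According to the methods, reads of 76 bases were cut at the 3′ end by the authors and placed on mm9 by Bowtie, where a tag had to match 1 place and 2 mismatches were allowed. MACS then compared either Ser5 library with the input, with peaks kept up to a p-value of 1e-05. Versions, and the settings for the input, are not given in the sources used here. The deposited tags, given as positions with duplicates kept, were 45 bases long for untreated Ser5, 30 for LPS Ser5 and 36 for the input, whereas the methods give the shorter length to the untreated library. In the deposited peak lists each peak has a score set by the authors' MACS run, 10 times the negative log10 of its p-value, of 50 or more. Peaks were not pooled.

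Positions in the files count from 0 and are printed from 1. Tags on chromosomes 1 to 19 and X were counted by their 5′ end over GENCODE M1 gene records and over 1 kb on either side of the 5′ end of the record, and scaled to all such tags. Starts within 500 bp were merged. Count intervals are exact Poisson intervals and ratio intervals are exact conditional on the sum. They cover counting error only, and PCR copies are not independent molecules. No test was possible with 1 library per condition. A peak counts as overlapping from 1 bp. Sequences of 30 bases were single-copy at 91.3% of positions in Rgs3, 89.8% in Rgs10 and at least 95.7% in the other members.

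The members, lists, rules and alternatives were chosen with earlier results of these data known. Text names all members, listed genes past the rule of size, neighbours, the 3 nearest genes in level and the marker and LPS check genes, of which some are not reported here. Single starts, peaks, the comparison of the remaining body with the start, and pathway genes named inside the factor of 2 were chosen after their values were seen. Alternatives were 1 tag per position, tags moved 75 bp, scaling to tags outside peaks, single-copy tags, other minima, factors, windows and gene extents, and stricter peaks and overlaps. Python 3.11.15, numpy 2.4.6, pandas 2.3.3, scipy 1.17.1, numba 0.67.0 and matplotlib 3.10.9 were used, and counts and intervals were checked against simulated data.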

Additional observations from a re-analysis of the deposited data

How the results depend on the processing

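The number of members past the rule of size stayed within 1.5 times under every alternative run. A factor of 1.5 brought 4 members, with Rgs19, to the lower side over the gene body, beside 25.17% of all genes tested. In the TSS window it brought 3, with Rgs10, beside 29.55%. A window of 0.5 kb on either side of the TSS brought Rgs10 at 0.441 past the factor of 2, where 14.24% of genes tested were lower. Of 130 ratios of single members or sites under an alternative, 125 stayed within the counting interval of the main value, 5 moved beyond it, and no ratio past the factor of 2 turned in direction. The 3 that crossed 1 were Rgs14 over the body without its first 1 kb (0.919 to 1.08) and, with 1 tag per position, the starts of Rgs3-010 (from 1.05 to just under 1) and Rgs3-202 (0.890 to 1.04). Without the first 1 kb of the gene the body ratio was 0.116 for Rgs2, 0.264 for Rgs10 and 6.57 for Rgs16, and with 1 tag per position the TSS window of Rgs2 gave 0.343. Scaling to the tags outside peaks raised every ratio of LPS to untreated by 0.11 on the log2 scale. Ratios to input moved further, and it put Rgs3 at 1.99 times input in untreated cells and 1.90 after LPS, and Rgs18 at 1.59 and 0.664. With at least 50% of a peak required inside the region, 7 members in untreated cells and 6 after LPS had a peak over the gene body, and 6 and 6 over the TSS window. The share of all genes under this overlap is not given, so these counts have no background beside them. No paired analysis was possible because each condition had 1 library, and for the same reason no library could be left out.

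Depth limits the low members most. The Rgs16 gene body held 40 tags in untreated cells and that of Rgs18 35 after LPS, and single peaks of 1 to 15 tags have intervals that span several fold. Differences between LPS and untreated cells cannot be told apart from differences between 2 single libraries, whose tags also differ in length.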
